A study of Mus musculus with 6 samples.

Results

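Teneurins, latrophilins and FLRT proteins are 3 families of neuronal surface proteins that bind one another across and along cell contacts. They were measured on 29 of the 45037 probe sets (sets of short oligonucleotides that each read 1 transcript) tested on Affymetrix arrays. The 10 genes, of 18193 with a probe set of their own, are the teneurins Tenm1, Tenm2, Tenm3 and Tenm4, the latrophilins Adgrl1, Adgrl2 and Adgrl3, and Flrt1, Flrt2 and Flrt3. A probe set belonged to a family when the platform annotation gave it the symbol of 1 of these genes and no other. All such probe sets are described, whatever they showed. The families themselves were selected on earlier results of the same comparison of genotypes, so the differences between genotypes below are a description of these genes. Their adjusted p-values place each probe set in the fit over all probe sets and are not independent support for a change in the families.

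The arrays compared D6/Zbtb20S transgenic mice with wildtype littermates on postnatal day 1, all on the C57BL/6 background. In both genotypes the subiculum and the retrosplenial cortex were dissected together, and in D6/Zbtb20S mice these areas are described in the labels as transformed towards CA1, the hippocampal field next to the subiculum. There were 3 arrays of D6/Zbtb20S tissue and 3 of wildtype tissue, each hybridised with a pool of RNA of 7 animals. Whether different pools came from different litters is not given in the sources used here, and a p-value then covers only how far these pools vary, which may be technical. The labels name the transgene but do not give its number of lines, and they do not say which cells of the dissected tissue express it.

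Teneurins are large single-pass proteins whose extracellular part binds a teneurin on another cell or a latrophilin. Latrophilins are adhesion G protein-coupled receptors with an extracellular lectin and olfactomedin region, through which they bind teneurins and FLRTs. FLRTs are leucine-rich repeat proteins that bind latrophilins and Unc5 receptors and guide migrating neurons and axons. In the mouse hippocampus, teneurin-3 and latrophilin-2 mark complementary parts of CA1 and of the subiculum and steer CA1 axons to the matching part of the subiculum. Latrophilin-2 and latrophilin-3 support different synapses on the dendrites of mouse CA1 neurons.

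Zbtb20, the repressor that the transgene carries, read 8.88, 9.10 and 8.94 on probe set 1422064_a_at in D6/Zbtb20S arrays, against 6.44, 5.84 and 7.64 in wildtype arrays (limma adjusted p = 0.00904). With all arrays it was the only 1 of 9 Zbtb20 probe sets past the threshold. On all 9, wildtype replicate 3 was the highest wildtype array, by 0.61 to 1.35 on the log2 scale. Without that array, Zbtb20 1437066_at (1.21, adjusted p = 0.00852), 1438443_at (0.71, adjusted p = 0.00798) and 1451577_at (1.19, adjusted p = 0.00135) passed as well in limma, all higher in D6/Zbtb20S tissue. With array weights 1437066_at also passed with all arrays kept. Among marker genes, 0 of 8 glutamatergic cortical neuron markers lay under the array median on all 6 arrays. Of these 8, Neurod2 (1.12) and Bcl11b (0.99) were higher and Tbr1 (-1.41) and Slc17a6 (-1.26) lower. By brightest probe set, 6.10% of all 18193 genes passed, 578 higher and 531 lower. Of 6 subiculum markers, which include Slc17a6 again, 5 were lower in D6/Zbtb20S tissue, and so were 3 of 5 retrosplenial markers. Of 7 CA1 markers, which include Zbtb20 itself (-0.14, limma adjusted p = 0.825), 2 were higher and 2 lower. Of 8 microglial markers 3 were higher, with a mean log2 level of the list of 5.95 to 6.23 in D6/Zbtb20S arrays and 5.53 to 5.65 in wildtype arrays. Of 7 oligodendrocyte lineage markers 4 were lower (6.33 to 6.48 in D6/Zbtb20S arrays and 6.73 to 6.97 in wildtype arrays), and so was 1 of 9 GABAergic markers. Of 6 CA3 and dentate gyrus markers 1 was lower, as was 1 of 8 endothelial and mural markers, and of 5 intermediate progenitor markers 1 was higher and 2 lower. None of 8 astrocyte and radial glia markers, 5 meningeal markers and 5 choroid plexus markers passed, and 3 choroid plexus markers lay under the array median on all arrays. The part of these cell types in the results below was not tested. In bulk tissue, fewer cells of a type and less RNA per cell cannot be told apart.

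The families split by member. Tenm3, Tenm2 and Flrt3 had lower signal in D6/Zbtb20S tissue, each on at least 2 probe sets past the threshold. Tenm1, Tenm4 and Flrt2 had higher signal, each on 1 probe set that was not the brightest of its gene. Their brightest probe sets and that of Tenm2 did not pass, and that of Flrt2 had a negative change (-0.16). The Tenm4 and Flrt2 calls were each lost when certain single arrays were left out. Adgrl1, Adgrl2, Adgrl3 and Flrt1 passed on none, although 1 Adgrl3 probe set passed under several alternative fits. Of the 29 probe sets, 9 (31.0%) passed an adjusted p under 0.05 in limma, 3 higher and 6 lower. Over all 45037 probe sets 5.52% passed, 3.40% higher and 2.11% lower. At least 2-fold, 6 of the 29 passed, against 1.49% of all probe sets. The D6/Zbtb20S and wildtype arrays did not overlap on 14 of the 29, and on 23.7% of all probe sets. The median change of the 29 was 0.00 and that of all probe sets -0.02, while the median size of a change, sign left aside, was 0.20 and 0.10. By family, 6 of 11 teneurin, 0 of 11 latrophilin and 3 of 7 FLRT probe sets passed. Leaving out 1 array at a time, between 6 and 11 of the 29 passed (11 without wildtype replicate 3), and between 1162 and 2881 of all probe sets. Without D6/Zbtb20S replicate 1, D6/Zbtb20S replicate 2 or wildtype replicate 2, 6 of the 29 passed, and 1341, 1306 and 1162 of all probe sets, against 2484 with all arrays. An ordinary linear model estimates each variance from the arrays of that probe set alone. With it, 0 of the 29 passed (adjusted p of at least 0.0646), and 0.444% of all probe sets passed.

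**Figure D1:**
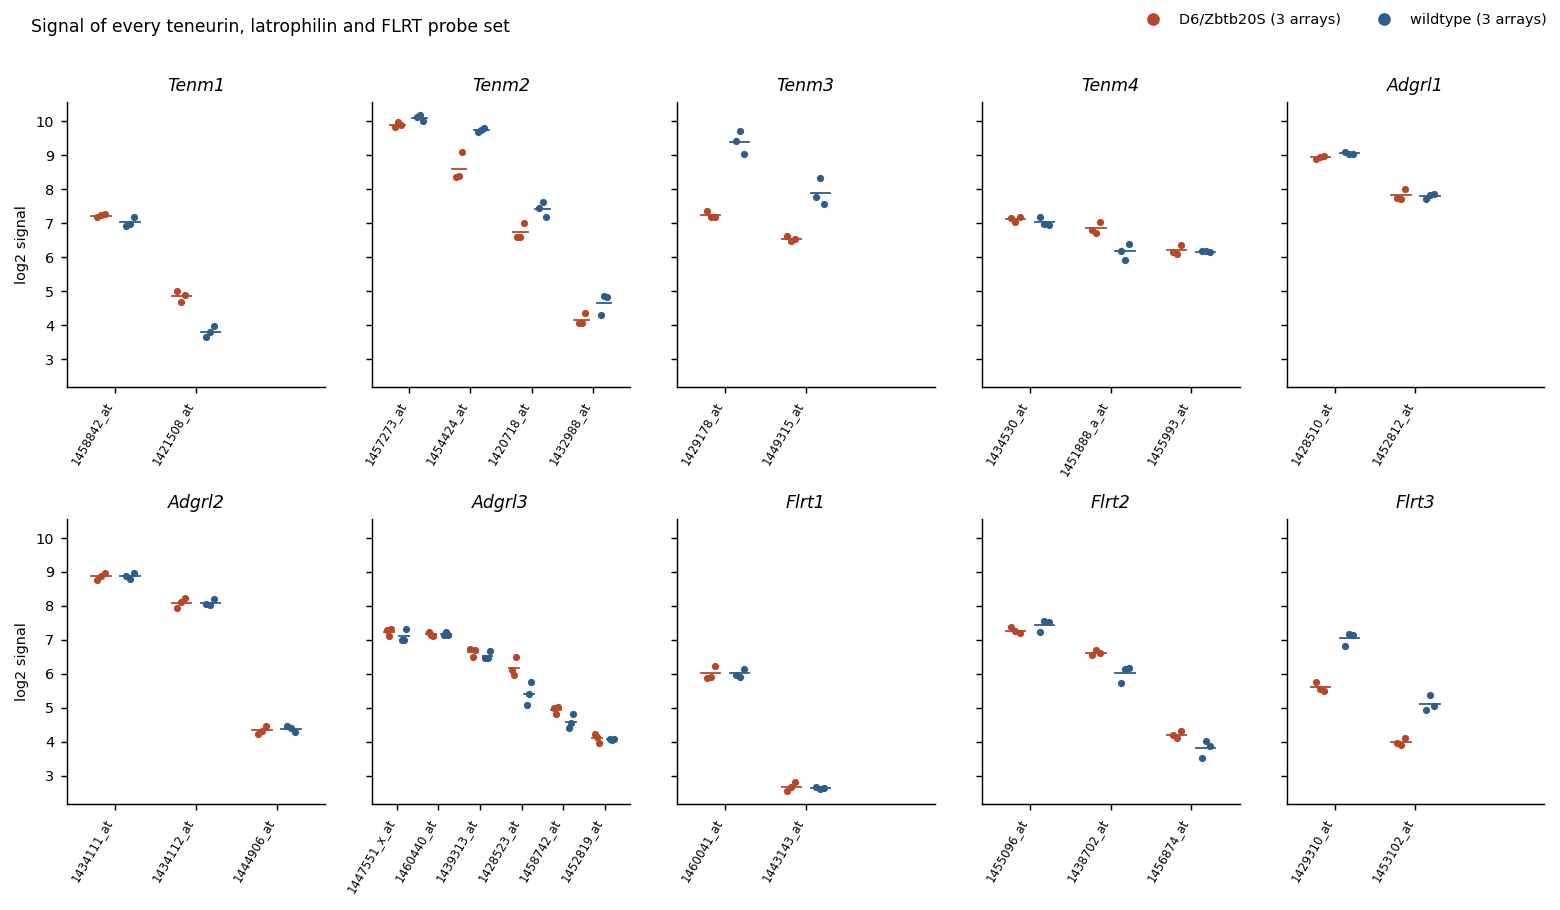
Log2 signal (y axis) of every probe set of the 10 genes (x axis, brightest first), with a point for each of 3 D6/Zbtb20S arrays (left of each pair) and 3 wildtype arrays (right of each pair) and a line at each mean. Both Tenm3 and both Flrt3 probe sets separate downwards in D6/Zbtb20S tissue, and the pairs of Adgrl1, Adgrl2 and Flrt1 lie at nearly the same height.

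**Figure D2:**
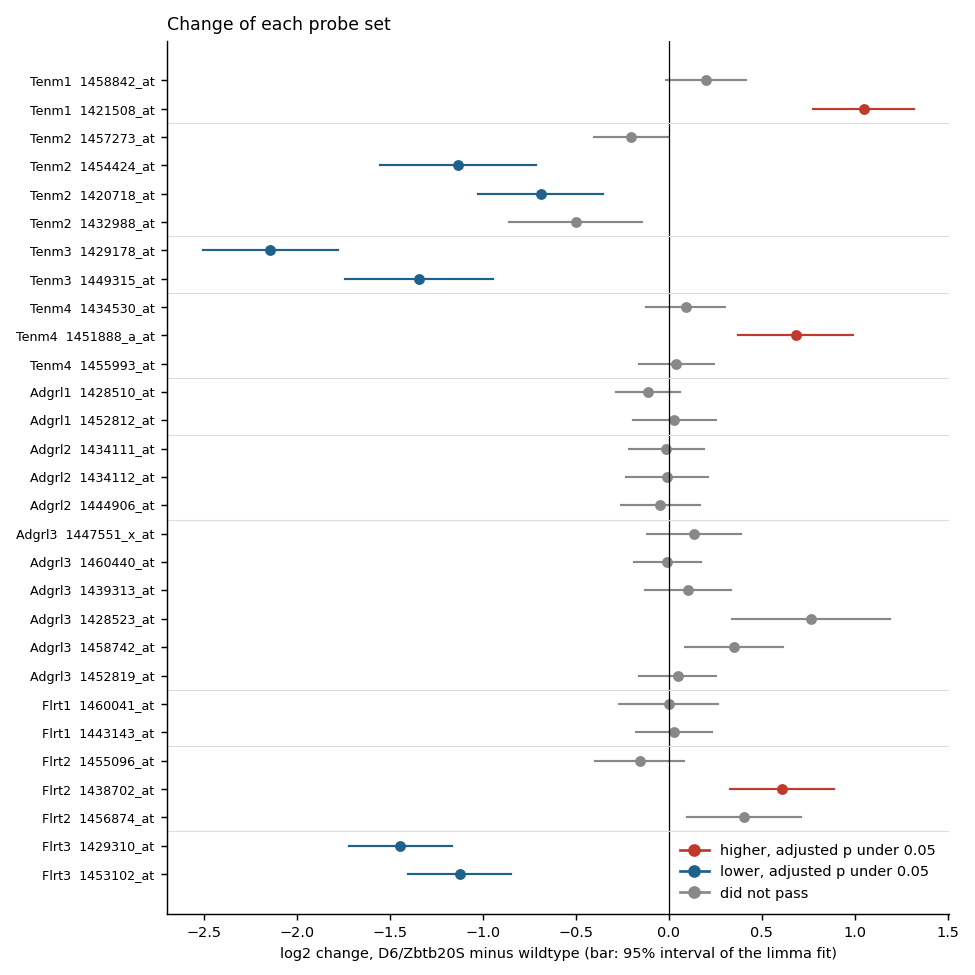
Log2 change of each probe set (D6/Zbtb20S minus wildtype, x axis) with its 95% interval from the limma fit, coloured by whether it passed an adjusted p under 0.05. Changes run from -2.14 (Tenm3) to 1.05 (Tenm1), and the 11 latrophilin probe sets are all grey.

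Tenm3, the teneurin that matches CA1 and subiculum axons in the mouse, had the largest change of the 10 genes. On 1429178_at it read 7.36, 7.19 and 7.18 in D6/Zbtb20S arrays, against 9.42, 9.72 and 9.03 in wildtype arrays. All D6/Zbtb20S arrays lay far below the lowest wildtype array, which was wildtype replicate 3. The level was 4.42-fold lower in D6/Zbtb20S tissue, with a log2 change of -2.14 ± 0.16 (SE, n = 3 and 3 arrays; 95% interval -2.51 to -1.78; limma adjusted p = 0.000238). The second Tenm3 probe set, 1449315_at, read 6.62, 6.48 and 6.52 in D6/Zbtb20S arrays, against 7.77, 8.32 and 7.56 in wildtype arrays. Here too the groups did not overlap and wildtype replicate 3 was the lowest wildtype array. The change on 1449315_at was -1.35 ± 0.17 (adjusted p = 0.00332), a 2.54-fold lower level. The changes of the Tenm3 probe sets differed in size by 0.80 ± 0.11 (limma on the difference of the probe sets within each array, adjusted p = 0.00335). Among all probe sets compared in this way with the brightest one of their gene, 7.01% of 16752 differed. Tenm3 kept both calls in all 6 fits with an array left out, with changes of -2.32 to -1.98 on 1429178_at and of -1.51 to -1.13 on 1449315_at. Without wildtype replicate 3 they were -2.32 and -1.51.

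The RefSeq promoter table (GRCm38.p6) holds a 300-base window for 9 of the 10 genes, 250 bases before to 50 bases after an annotated start, and Flrt1 has none. The windows of Tenm3, Flrt3 and Tenm1 are shown, for the 2 genes that passed as lower on every probe set they have and the gene with the largest rise. Capitals mark matches to 3 core promoter motifs on either strand. The TATA box was searched as TATAAA, whose matches on the 2 strands can overlap. It was found in 13.6% of 32851 windows of this table, with 1 chromosome, which holds none of the windows described here, left out. The CCAAT box was searched by those letters and found in 37.4% of windows. The GC box was searched as GGGCGG and found in 35.7% of windows. The Tenm3 window lies at chr8:48674641-48674940 on the minus strand and holds none of the 3 motifs, 10 CG dinucleotides and 47.3% G and C.
Tenm3: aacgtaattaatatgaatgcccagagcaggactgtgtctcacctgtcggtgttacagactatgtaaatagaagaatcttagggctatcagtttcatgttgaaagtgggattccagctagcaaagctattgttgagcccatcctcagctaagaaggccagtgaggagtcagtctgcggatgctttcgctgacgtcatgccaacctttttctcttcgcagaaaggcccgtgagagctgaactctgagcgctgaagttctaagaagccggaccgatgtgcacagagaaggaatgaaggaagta
The Flrt3 window, at chr2:140671427-140671726 on the minus strand, also holds none of the motifs, with 8 CG dinucleotides and 51.3% G and C.
Flrt3: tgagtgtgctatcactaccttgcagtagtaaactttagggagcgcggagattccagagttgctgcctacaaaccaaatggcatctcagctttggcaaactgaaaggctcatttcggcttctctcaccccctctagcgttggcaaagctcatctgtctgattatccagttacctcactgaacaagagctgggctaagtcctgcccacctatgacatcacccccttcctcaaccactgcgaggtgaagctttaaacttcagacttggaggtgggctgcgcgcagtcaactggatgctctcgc
The Tenm1 window, at chrX:43274735-43275034 on the minus strand, holds 4 matches to the TATA box letters, 2 of which overlap, and no CG dinucleotide, with 27.0% G and C.
Tenm1: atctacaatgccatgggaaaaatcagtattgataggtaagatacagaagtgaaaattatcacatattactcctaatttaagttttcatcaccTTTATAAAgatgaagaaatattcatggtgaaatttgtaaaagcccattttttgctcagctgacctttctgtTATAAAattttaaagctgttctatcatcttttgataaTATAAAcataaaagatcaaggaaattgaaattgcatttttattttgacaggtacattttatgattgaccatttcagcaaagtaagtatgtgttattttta
Over the same 32851 windows the median was 52.7% G and C with 7 CG dinucleotides. The single Adgrl1 window (70.0% G and C) and each of the 3 Adgrl3 windows (58.7% to 75.3%), which partly overlap, hold at least 1 GC box. The Adgrl2 window (38% G and C) holds no GC box and 1 match to the TATA box letters. The Tenm3 and Tenm1 windows belong to a start inside the annotated span of the gene and not at its outer end, and the arrays do not show which start was used. No motif of Zbtb20 was searched. A match is a match of letters and not a binding site.

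Tenm2, a teneurin whose binding to latrophilin-1 joins presynaptic and postsynaptic membranes, was lower on 2 of its 4 probe sets. On 1454424_at it read 8.36, 8.38 and 9.09 in D6/Zbtb20S arrays, against 9.67, 9.75 and 9.80 in wildtype arrays. D6/Zbtb20S replicate 3 lay nearer the wildtype arrays than the other D6/Zbtb20S arrays did, without overlap. The level was 2.20-fold lower (log2 change -1.13 ± 0.18, limma adjusted p = 0.00918), and without D6/Zbtb20S replicate 3 the change was -1.38. On 1420718_at it read 6.60, 6.59 and 7.01 in D6/Zbtb20S arrays, against 7.46, 7.62 and 7.19 in wildtype arrays. These groups did not overlap but came close at D6/Zbtb20S replicate 3 and wildtype replicate 3. The change on 1420718_at was -0.69 ± 0.15 (adjusted p = 0.0320), and the call was lost without D6/Zbtb20S replicate 1 or 2 or wildtype replicate 1 or 2 (adjusted p up to 0.138). The brightest Tenm2 probe set, 1457273_at, read 9.82, 9.98 and 9.90 in D6/Zbtb20S arrays, against 10.12, 10.19 and 10.001 in wildtype arrays, a change of -0.20 ± 0.09 (adjusted p = 0.266). The groups did not overlap there, but the change was 0.93 ± 0.19 smaller than that on 1454424_at (adjusted p of the difference = 0.0181). The dimmest, 1432988_at, was at -0.50 ± 0.16 (adjusted p = 0.124) and was designed from the same sequence record as 1454424_at. It passed with equal array medians, quantile normalization, array weights or the replicate block, and without wildtype replicate 1 (adjusted p from 0.0131 to 0.0492). All 4 Tenm2 changes were negative.

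Tenm1, an X-linked teneurin, was higher on 1 of 2 probe sets. On 1421508_at it read 5.01, 4.68 and 4.88 in D6/Zbtb20S arrays, against 3.66, 3.79 and 3.99 in wildtype arrays. The groups were separated by more than either group's range. The level was 2.07-fold higher (log2 change 1.05 ± 0.12, limma adjusted p = 0.00170) and passed in all 6 fits with an array left out. The brighter probe set, 1458842_at, read 7.19, 7.23 and 7.26 in D6/Zbtb20S arrays, against 6.92, 6.97 and 7.19 in wildtype arrays. Wildtype replicate 3 overlapped the D6/Zbtb20S arrays, and the change was 0.20 ± 0.09 (adjusted p = 0.318). The Tenm1 probe sets differed in their change by 0.85 ± 0.12 (adjusted p = 0.00357). The sex of the pooled animals is not given in the sources used here. A probe set of the Y-linked gene Eif2s3y was lower in D6/Zbtb20S tissue (log2 change -0.463, limma adjusted p = 0.0204). It was picked after its value was seen, and 5.52% of all probe sets passed. Other Y-linked genes are not described here. The part of sex in the Tenm1 change was not tested.

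Tenm4, a teneurin needed for myelination in the mouse central nervous system, was higher on 1 of 3 probe sets. On 1451888_a_at it read 6.81, 6.71 and 7.04 in D6/Zbtb20S arrays, against 6.18, 5.93 and 6.40 in wildtype arrays. All D6/Zbtb20S arrays lay above wildtype replicate 3, the highest wildtype array. The change was 0.68 ± 0.13, a 1.60-fold higher level (limma adjusted p = 0.0230), and passed in 1 of 6 fits with an array left out, the one without wildtype replicate 3 (adjusted p up to 0.0883 in the others). The other two Tenm4 probe sets were at 0.09 ± 0.09 and 0.04 ± 0.09 (adjusted p = 0.683 and 0.861). The change on 1451888_a_at exceeded that on the brightest Tenm4 probe set by 0.59 ± 0.15 (adjusted p of the difference = 0.0407).

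**Figure D3:**
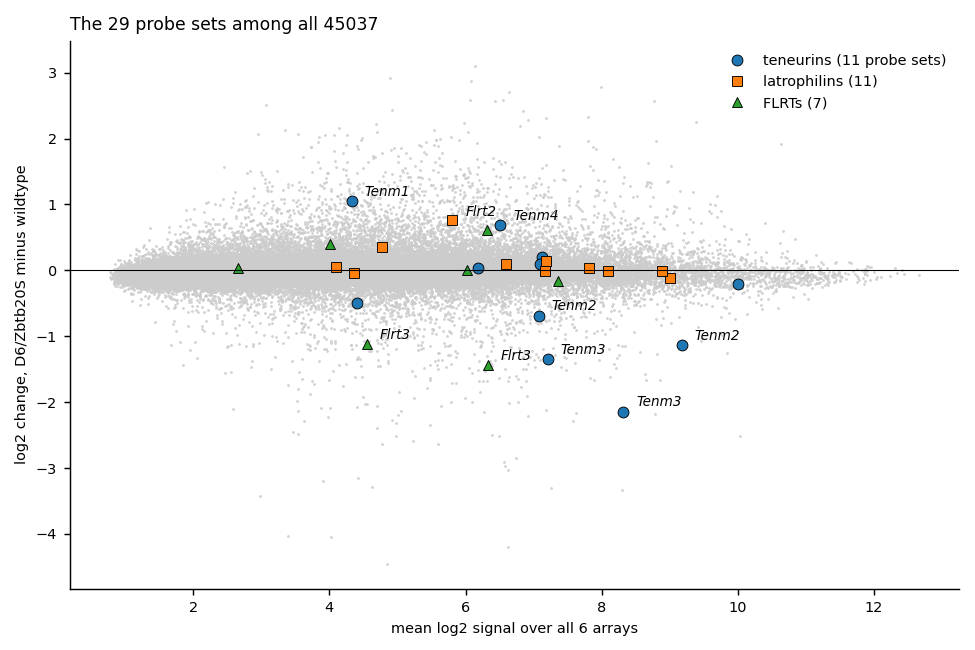
Log2 change (D6/Zbtb20S minus wildtype, y axis) against the mean log2 signal over all 6 arrays (x axis) for all 45037 probe sets in grey, with teneurins as circles, latrophilins as squares and FLRTs as triangles. Names mark the 9 that passed an adjusted p under 0.05. Tenm3 1429178_at is the lowest of the named points and Tenm1 1421508_at the highest.

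No latrophilin probe set passed in the fit of all arrays as deposited. Adgrl2, the latrophilin that repels teneurin-3-bearing CA1 axons in the mouse subiculum, read 8.77, 8.89 and 8.97 on 1434111_at in D6/Zbtb20S arrays, against 8.90, 8.81 and 8.98 in wildtype arrays. The groups overlapped throughout. Its 3 probe sets changed by -0.05 to -0.01 on the log2 scale, and the widest of their 95% intervals, that of 1434112_at, ran from -0.23 to 0.21. Adgrl1, the receptor first found by its binding of the spider toxin alpha-latrotoxin, was at -0.11 ± 0.08 on 1428510_at and 0.03 ± 0.10 on 1452812_at (limma adjusted p = 0.505 and 0.914), with 95% intervals of -0.28 to 0.06 and -0.19 to 0.25. On 1428510_at the D6/Zbtb20S arrays (8.89, 8.95 and 8.99) lay just below the wildtype arrays (9.09, 9.05 and 9.03).

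Adgrl3, whose gene has been linked to attention deficit hyperactivity disorder in humans, had the latrophilin probe set closest to the threshold. On 1428523_at it read 6.12, 5.96 and 6.49 in D6/Zbtb20S arrays, against 5.10, 5.41 and 5.77 in wildtype arrays. The groups did not overlap, and wildtype replicate 3 lay closest to the D6/Zbtb20S arrays. The change was 0.76 ± 0.19, with a 95% interval of 0.34 to 1.19 and an adjusted p of 0.0532 in limma. It passed without wildtype replicate 3 (adjusted p = 0.0139, change 0.93) and in no other fit with an array left out (adjusted p up to 0.180). With all arrays kept, it passed with equal array medians (adjusted p = 0.0136), quantile normalization (0.0276), array weights (0.0160), an intensity trend (0.0494), without dim probe sets (0.0448) and with the replicate block (0.00417). The Adgrl3 call therefore depends on the setting. For the actin control probe sets, the 3' to 5' log2 difference follows RNA integrity. It was 0.80, 0.91 and 0.83 in D6/Zbtb20S arrays and 0.53, 0.88 and 1.31 in wildtype arrays. Over the wildtype arrays this is the order of Adgrl3 1428523_at, and over the D6/Zbtb20S arrays it is not. The array medians had the order of 1428523_at in both genotypes. They were 3.86, 3.83 and 3.97 in D6/Zbtb20S arrays and 3.83, 3.87 and 3.91 in wildtype arrays. The wildtype order of the actin difference was also that of some other family probe sets, among them both of Tenm1, Tenm2 1454424_at and Flrt2 1438702_at. Others did not have it. Adgrl1 1428510_at and Tenm4 1434530_at ran in reverse, and neither Tenm3 probe set followed it. How often this order occurs over all probe sets was not counted. The part of RNA integrity or of the array medians in these results was not tested. Of the other 5 Adgrl3 probe sets, 1458742_at was at 0.35 ± 0.12 (adjusted p = 0.149) with groups that did not overlap, and passed without wildtype replicate 3 (0.46, adjusted p = 0.0437). The other 4 lay between -0.01 and 0.14. Among these 4, 1452819_at and 1460440_at were designed from the same sequence record as 1428523_at. The change on 1428523_at exceeded that on the brightest Adgrl3 probe set by 0.63 ± 0.14 (adjusted p of the difference = 0.0261).

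Flrt3, an FLRT that binds latrophilin-3 and contributes to glutamatergic synapses in the mouse hippocampus, was lower on both probe sets. On 1429310_at it read 5.76, 5.55 and 5.498 in D6/Zbtb20S arrays, against 6.82, 7.18 and 7.15 in wildtype arrays. On 1453102_at it read 3.96, 3.93 and 4.11 in D6/Zbtb20S arrays, against 4.93, 5.37 and 5.06 in wildtype arrays. The groups stood well apart on both probe sets, and in each it was wildtype replicate 1 that came closest to the D6/Zbtb20S arrays. The log2 changes were -1.44 ± 0.12 (2.72-fold lower, limma adjusted p = 0.000393) and -1.13 ± 0.12 (2.18-fold lower, adjusted p = 0.00138). The difference between them was 0.32 ± 0.14 (adjusted p = 0.243). Both were designed from 1 sequence record, so they are not separate evidence. Flrt3 kept both calls in all 6 fits with an array left out, with changes of -1.56 to -1.38 and of -1.22 to -0.999. In the GRCm38.p6 gene table Flrt3 lies within the span of Macrod2, and none of 4 Macrod2 probe sets passed (changes of -0.22 to 0.23, adjusted p from 0.280 to 0.746).

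Flrt2, a repellent ligand of Unc5d-bearing neurons in the developing mouse cortex, gave probe sets that disagreed. On 1438702_at it read 6.57, 6.71 and 6.60 in D6/Zbtb20S arrays, against 5.74, 6.13 and 6.18 in wildtype arrays, a 1.53-fold higher level (log2 change 0.61 ± 0.12, limma adjusted p = 0.0238). The groups did not overlap, and the call was lost without any 1 of the D6/Zbtb20S arrays or wildtype replicate 2 (adjusted p up to 0.0987). On the dimmer 1456874_at, where the groups also did not overlap, the change was 0.40 ± 0.13 (adjusted p = 0.152). On the brightest Flrt2 probe set, 1455096_at, the arrays read 7.37, 7.25 and 7.21 in D6/Zbtb20S tissue, against 7.23, 7.55 and 7.51 in wildtype tissue. There the groups overlapped and the change was -0.16 ± 0.10 (adjusted p = 0.4997). The change on 1438702_at differed from that on 1455096_at by 0.77 ± 0.12 (adjusted p of the difference = 0.00423), and that on 1456874_at did by 0.56 ± 0.12 (adjusted p = 0.0241). Flrt1, the third FLRT, read 5.89, 5.91 and 6.24 on 1460041_at in D6/Zbtb20S arrays, against 5.98, 5.92 and 6.15 in wildtype arrays. Its change was 0.00 ± 0.12, with a 95% interval of -0.27 to 0.26. The second Flrt1 probe set lay under the array median on all 6 arrays and changed by 0.03 ± 0.09.

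Which probe set stands for a gene decided several of these results. By the brightest probe set of each gene, 2 of the 10 genes passed, Tenm3 and Flrt3, both lower, and 6.10% of 18193 genes passed in the same way. Of the 19 other probe sets of the 10 genes, 7 differed in their change from the brightest one, at 1 or 2 probe sets each of Tenm1, Tenm2, Tenm3, Tenm4, Adgrl3 and Flrt2. Over all genes, 7.01% of 16752 such probe sets differed. As the mean of all probe sets of a gene, with adjustment over genes, Tenm3, Flrt3 and Tenm2 were lower (log2 changes -1.74, -1.28 and -0.63, limma adjusted p = 0.000138, 7.4e-05 and 0.00628). Tenm1 was higher (0.62, adjusted p = 0.00263). Tenm4 (0.27, adjusted p = 0.0912), Flrt2 (0.29, adjusted p = 0.150) and Adgrl3 (0.23, adjusted p = 0.164) did not pass as means. No level was compared between genes, since probe sets differ in how strongly they bind.

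**Figure D4:**
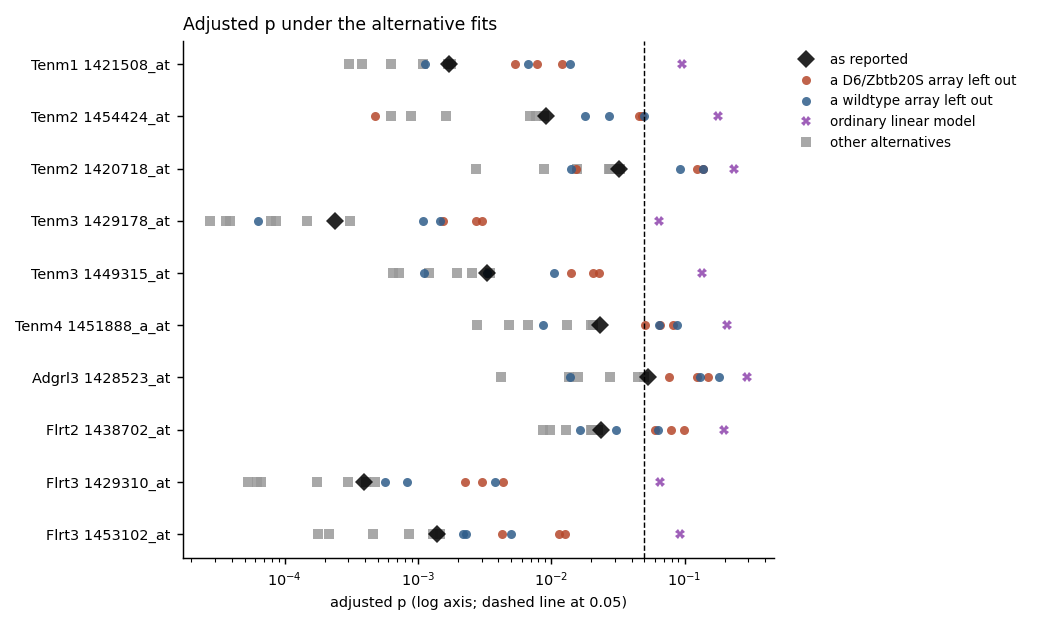
Adjusted p (log x axis, dashed line at 0.05) of the 9 probe sets that passed and of Adgrl3 1428523_at, as reported (diamond) and under each alternative fit. The Tenm3, Flrt3 and Tenm1 points and those of Tenm2 1454424_at stay left of the line with any array left out, and the ordinary linear model lies right of the line for all 10.

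The known binding partners of these proteins were read from a list of 18 genes, of which 15 had a probe set of their own in the annotation. By their brightest probe set, 2 of 15 were higher, 2 were lower and 11 did not pass, with a median change of -0.03, against 6.10% of all genes past the threshold and a median of -0.02. Among 8 FLRT partners, the netrin receptor gene Unc5d, which binds FLRT2 in the mouse, read 5.01, 5.06 and 4.88 in D6/Zbtb20S arrays, against 6.48, 6.77 and 6.10 in wildtype arrays. The groups stood apart and Unc5d was 2.76-fold lower (-1.47 ± 0.16, limma adjusted p = 0.00126). The other Unc5 genes, given here after their values were seen, did not pass (Unc5a -0.03, Unc5b -0.01 and Unc5c -0.10). Robo1, a Slit receptor that associates with FLRT3 in mouse thalamic axons, read 8.36, 8.29 and 8.26 in D6/Zbtb20S arrays, against 7.45, 7.21 and 7.73 in wildtype arrays. Its arrays did not overlap, at 0.84 ± 0.13 (1.79-fold higher, adjusted p = 0.00700), and of its other probe sets 1445549_at passed (0.54) and 1457407_at did not (0.02). The fibroblast growth factor receptor Fgfr1, whose signalling FLRTs can enhance, read 7.74, 7.74 and 7.74 in D6/Zbtb20S arrays, against 7.0005, 6.89 and 7.24 in wildtype arrays (0.70 ± 0.10, 1.62-fold higher, adjusted p = 0.00540, from an _s_at probe set, a kind that may also bind other transcripts). Neither of the other Fgfr1 probe sets passed (0.41 and 0.82, adjusted p = 0.0926 and 0.0871). Among 6 latrophilin partners, the contactin gene Cntn6, whose product binds latrophilin-1, read 5.66, 5.40 and 5.46 in D6/Zbtb20S arrays, against 6.82, 6.82 and 7.02 in wildtype arrays. It was 2.60-fold lower (-1.38 ± 0.10, adjusted p = 0.000210), and it is also 1 of the 5 subiculum markers that were lower. The 2 neurexins measured, the presynaptic partners of latrophilins, did not pass, though the groups did not overlap on either brightest probe set. Nrxn2 was at -0.26 and Nrxn3 at -0.33 (limma adjusted p = 0.183 and 0.0723). Their other probe sets ran from -0.10 to 0.61, and none passed. Dag1, the 1 teneurin partner measured, encodes dystroglycan and did not pass on its brightest probe set (0.17 ± 0.08, adjusted p = 0.361), where the groups did not overlap. Its other 3 probe sets passed as higher: 1423872_a_at (0.84, adjusted p = 0.00185), 1426779_x_at (0.75, adjusted p = 0.00264) and 1456131_x_at (0.79, adjusted p = 0.00704). The _x_at kind may also bind other transcripts, and 1426779_x_at was designed from the same sequence record as the brightest Dag1 probe set. Over all 34 probe sets of the 15 partner genes, 6 were higher and 2 lower, against 5.52% of all probe sets past the threshold.

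**Figure D5:**
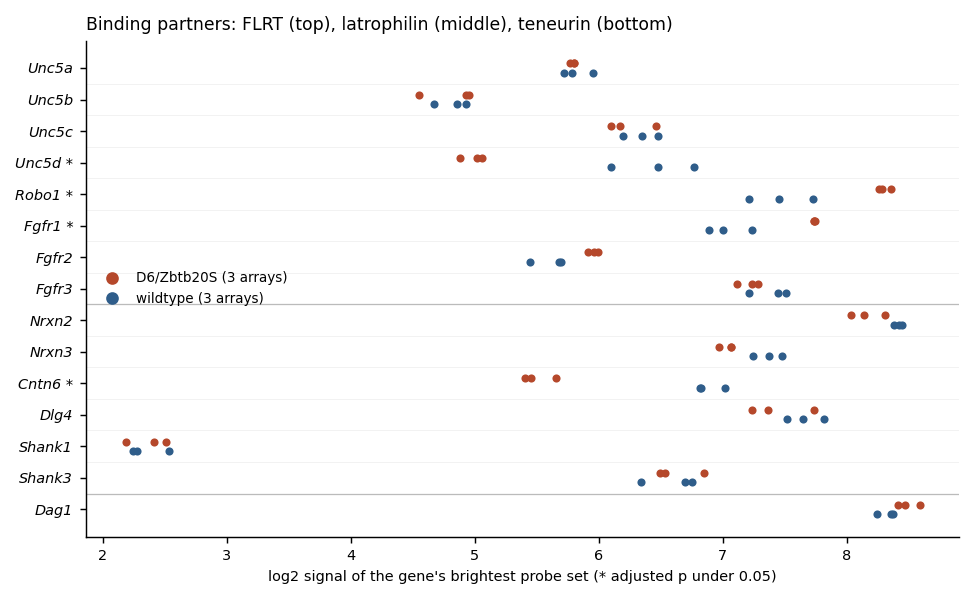
Log2 signal (x axis) of the brightest probe set of the 15 binding partner genes in 3 D6/Zbtb20S arrays (upper of each pair of rows) and 3 wildtype arrays (lower). Asterisks mark the 4 genes that passed an adjusted p under 0.05: Unc5d and Cntn6 lie to the left in D6/Zbtb20S arrays, and Robo1 and Fgfr1 to the right.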

How the data were processed

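Affymetrix arrays measured mRNA in 3 pools of D6/Zbtb20S and 3 pools of wildtype tissue, grouped by the titles in the labels. The deposited table holds 1 log2 value per probe set and array. RMA and limma are named in the submitters' processing notes, with version and order not given in the sources used here. The log base was taken from the range of the values, and array medians of 3.83 to 3.97 leave the last scaling unknown. RMA compresses changes near the floor. Precision is limited by having few arrays.

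Of 45101 probe sets, 64 controls were left out. The platform annotation gave 34945 probe sets 1 symbol, 932 several and 9160 none. The gene IDs of all 29 family probe sets carry the same symbol in the GRCm38.p6 gene table. Promoter windows come from RefSeq, and this table's build was used for them and for gene overlaps only.

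Changes are D6/Zbtb20S minus wildtype, from a limma model without covariates (lmFit, then eBayes; limma 3.58.1, R 4.3.3) on all 45037 probe sets, with Benjamini-Hochberg adjustment over them and a threshold of 0.05. Values after ± are standard errors. A gene is represented by its brightest probe set over all 6 arrays where 1 is needed. The fit of differences between probe sets of a gene was added after values were seen. The fit was tested on simulated data with independent normal errors, which does not cover deviations shared across an array. Families, partner and marker lists were chosen with earlier results of these data known. The named genes are all family probe sets, Zbtb20 and the partner genes past the threshold. Eif2s3y was added after its value was seen. Plots used matplotlib 3.10.9 (Python 3.11.15).

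The alternatives were quantile normalization, equal array medians, an intensity trend, array weights, removal of probe sets above the array median in fewer than 3 arrays, 1 value a gene (brightest or mean), thresholds of 0.01 and 0.1, an ordinary linear model, a replicate block and leaving out each array.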

Additional observations from a re-analysis of the deposited data

How the results depend on the processing

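The 6 calls of both Tenm3 and both Flrt3 probe sets, Tenm1 1421508_at and Tenm2 1454424_at passed with any 1 array left out, while the other 3 family calls were each lost without at least 1 array. With limma, 11 of the 29 family probe sets passed with equal array medians (2945 of all probe sets), quantile normalization (2920) or array weights (4710). With an intensity trend (2527), without dim probe sets (2365 of 22840) or at a threshold of 0.1 (3678), 10 passed. At a threshold of 0.01, 6 passed and 1062 of all probe sets. An ordinary linear model left 0 of the 29, 1 of the 15 partners and 200 of all 45037. By 1 value a gene, 2 of 10 genes passed by the brightest probe set and 4 by the mean, against 1402 and 1498 of 18193 genes. Among the 15 partners, 6 passed by the brightest probe set and 5 by the mean in these fits. Leaving out 1 array gave 6 to 11 family probe sets and 1162 to 2881 of all.

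The values do not settle whether replicate numbers pair the arrays. Deviations of same-numbered arrays correlated at -0.03, 0.18 and 0.21, and those of differently numbered arrays at -0.26 to 0.15. Each of D6/Zbtb20S replicates 2 and 3 correlated best with its own number, but replicate 1 with wildtype replicate 2 (0.049). With the replicate number as a block, 11 family probe sets (4 higher, 7 lower), 4 partners and 3304 of all probe sets passed.

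Directions turned only for changes that had not passed, and the cause was not tested. With array weights these were Adgrl1 1452812_at (-0.027), Adgrl2 1434111_at (0.021) and 1434112_at (0.0031), Tenm4 1455993_at (-0.0013), and Zbtb20 1437598_at (0.11), 1439128_at (0.052) and 1443471_at (0.22). As gene means they were Flrt1 (0.013), Flrt2 (0.29), Unc5b (0.042), Unc5c (0.042) and Zbtb20 (0.40). With 1 array left out the changes ran from -0.057 to 0.081 for Adgrl1 1452812_at, from -0.060 to 0.037 for Adgrl2 1434111_at, from -0.075 to 0.063 for 1434112_at and from -0.11 to 0.0076 for 1444906_at. They ran from -0.015 to 0.12 for Adgrl3 1452819_at, from -0.044 to 0.018 for 1460440_at, from -0.039 to 0.089 for Flrt1 1443143_at, from -0.12 to 0.065 for 1460041_at and from -0.035 to 0.093 for Tenm4 1455993_at. For Unc5a they ran from -0.080 to 0.039, for Unc5b from -0.083 to 0.12, and for Zbtb20 from -0.062 to 0.46 (1437065_at), -0.36 to 0.18 (1437598_at), -0.41 to 0.11 (1439128_at) and -0.39 to 0.29 (1443471_at).

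With 3 arrays a genotype, an exact permutation test of 1 probe set cannot give a p under 0.10. Signals near the floor limit what can be read from Flrt1 1443143_at. Of the calls, Tenm1 1421508_at read 3.66, 3.79 and 3.99 in wildtype arrays, near their medians of 3.83, 3.87 and 3.91. Flrt3 1453102_at read 3.96, 3.93 and 4.11 in D6/Zbtb20S arrays, near their medians of 3.86, 3.83 and 3.97. The size of these changes may be compressed.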

Other observations

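On 6 of the 9 family probe sets that passed, wildtype replicate 3 was the wildtype array nearest to the D6/Zbtb20S mean (66.7%). The same held for 1346 of the 2475 other probe sets that passed (54.4%).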
